A study of Rattus norvegicus with 66 samples.

Results

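Csf1r, Cx3cr1, Aif1, P2ry12, C1qa, C1qb, C1qc, Tmem119, Trem2 and Itgam are genes that the resident macrophages of the brain, the microglia, express. Their counts were read from the dorsal hippocampus of Long Evans rat pups on postnatal day (PND) 6. The members were taken as the rows of the count files that carry these symbols, 10 of 37777 genes in all, and each symbol had 1 row. Their identifiers in the files are gene33160 (Csf1r), gene20395 (Cx3cr1), gene34822 (Aif1), gene5913 (P2ry12), gene14125 (C1qa), gene14123 (C1qb), gene14124 (C1qc), gene26456 (Tmem119), gene20742 (Trem2) and gene3306 (Itgam). All of them passed the filter on low counts in every comparison.

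Microglia depend on signals through the receptor CSF1R, follow neurons through CX3CR1, the receptor of the neuronal chemokine fractalkine, and extend their processes along ADP through P2RY12. In the developing hippocampus they remove cells and synapses, in part those tagged by complement. C1q, the recognition molecule of the classical complement pathway, is assembled from the chains encoded by C1qa, C1qb and C1qc, and in the brain it comes mainly from microglia. TREM2 is a receptor for lipids and apolipoproteins, and ITGAM (CD11b) is the alpha subunit of complement receptor 3. AIF1 (IBA1) and TMEM119 serve as microglial markers in histology.

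Dams received Aroclor 1254 (Aro, a mixture of polychlorinated biphenyls) or bisphenol A (BPA) with their chow, or chlorpyrifos (CPF, an organophosphate insecticide) by subcutaneous injection, and pups were still exposed on PND 6. High doses were 5 mg/kg Aroclor 1254 (Aro5), 5 mg/kg bisphenol A (BPA5) and 3 mg/kg chlorpyrifos (CPF3), in both sexes. Low doses were 0.5 mg/kg (Aro0.5, BPA0.5) and 1 mg/kg (CPF1), in males alone. Controls were pups of feeding control dams (CONF) and of vehicle-injected dams (CONSC), and their vehicle is given as saline in the sample descriptions and as DMSO in the methods of the study. Male groups held 4 CONF, 5 CONSC, 4 Aro0.5, 4 BPA0.5, 4 CPF1, 6 Aro5, 7 BPA5 and 7 CPF3 pups. Female groups held 5 CONF, 5 CONSC, 5 Aro5, 4 BPA5 and 4 CPF3 pups. All 13 groups were of 1 age, and the dissected tissue included a small part of the neighbouring cortex.

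Total counts per library ranged from 10644138 to 86206550 (median 20740650). The 66 libraries came from 64 pups, because CONF male N2-2y and CONF female N4-3x had 2 libraries each, which were summed. The labels of N4-3x give unlike times of dissection, so that both libraries were taken as 1 pup from its number. Library names were written in 2 forms, called A and B here. Of the male libraries, all controls and low doses had form A except 1 library of N2-2y, and the 20 high-dose libraries had form B, so that name form and high dose cannot be told apart in males. What the forms mark is not given in the sources used here. Among control females, form A was borne by 5 libraries and form B by 6, while high-dose females had names in which neither form could be read.

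The genes of the C1q chains lie next to each other in the RefSeq gene table. Promoters are shown for C1qa and C1qb, because these chains varied together with C1qc across pups and because theirs were the promoters among those found that hold the motif searched. The 250 bases before the start site were taken from RefSeq on build GRCr8, on the minus strand for both genes, and capitals mark the motif GGAAGT, which C1qa holds on the strand shown and C1qb on the opposite strand. It is a core of sites bound by PU.1, the transcription factor encoded by Spi1 that directs macrophage development.

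C1qa, chr5:154419934-154420183: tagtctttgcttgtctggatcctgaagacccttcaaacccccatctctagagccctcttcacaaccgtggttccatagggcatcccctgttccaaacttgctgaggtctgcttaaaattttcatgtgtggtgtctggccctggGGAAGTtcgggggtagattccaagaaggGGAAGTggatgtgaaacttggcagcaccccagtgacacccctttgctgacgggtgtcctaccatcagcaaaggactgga

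C1qb, chr5:154407828-154408077: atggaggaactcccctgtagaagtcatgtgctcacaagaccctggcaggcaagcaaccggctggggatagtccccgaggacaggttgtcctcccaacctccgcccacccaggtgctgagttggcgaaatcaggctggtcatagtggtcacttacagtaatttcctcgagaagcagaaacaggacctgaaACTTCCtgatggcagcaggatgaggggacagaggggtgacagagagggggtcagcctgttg

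The motif begins 107 and 79 bases before the start site of C1qa and 61 bases before that of C1qb. Of the members, 6 were in the promoter table and 2 of these 6 held the motif. C1qc, Aif1, P2ry12 and Tmem119 were not in it. The motif was found on either strand in 19.2% of all 33469 promoters of this length, and at 2 or more places in 2.8%. Whether it has a part in the levels of these genes was not tested. The promoters of Csf1r, Cx3cr1, Trem2 and Itgam do not hold these letters in this window.

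Levels are in CPM, the counts of a gene for each 1000000 counts in the library, which are not scaled for gene length, so that levels are compared between pups and not between genes. In bulk tissue, fewer microglia and less RNA per microglial cell cannot be told apart.

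Csf1r was read at 28.7, 31.9, 31.0 and 29.1 CPM in the 4 CONF males and at 23.0, 40.3, 33.5, 43.1 and 32.0 CPM in the 5 CONSC males. The spread among CONSC males thus covered that of CONF males. Over all 64 pups Csf1r lay between 17.2 and 43.1 CPM (median 30.4), Cx3cr1 between 13.3 and 32.4 (median 20.1) and P2ry12 between 5.31 and 15.8 (median 9.60). Aif1 lay between 6.39 and 18.0 CPM (median 10.0), and Tmem119 between 0.833 and 2.37 CPM (median 1.53), the latter from 9 to 129 counts per pup. These genes were found in each pup, which was also true of the C1q chains. C1qa lay between 5.01 and 15.0 CPM (median 9.81), C1qb between 6.49 and 17.3 (median 12.0) and C1qc between 2.30 and 10.2 (median 6.05). Trem2 lay between 1.75 and 7.39 CPM (median 4.83) and Itgam between 2.23 and 6.18 (median 3.53).

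The 13 groups were ordered by their mean level for each gene. Neighbours in that order overlapped in all 10 genes, as they did in 98.7% of the 13948 genes whose mean CPM was at least that of the lowest member. The ratio of the highest to the lowest group mean ran from 1.35 for Csf1r to 1.80 for C1qc. The lowest mean was that of CPF3 males for Csf1r, C1qa and Trem2, and that of CPF3 females for Cx3cr1, Aif1, P2ry12 and Itgam. Aro5 males were lowest for C1qb and Tmem119, and CONF males for C1qc. In the plot of levels by group the overlap of the groups can be seen, together with the high position of C1qc in all female groups.

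**Figure D1:**
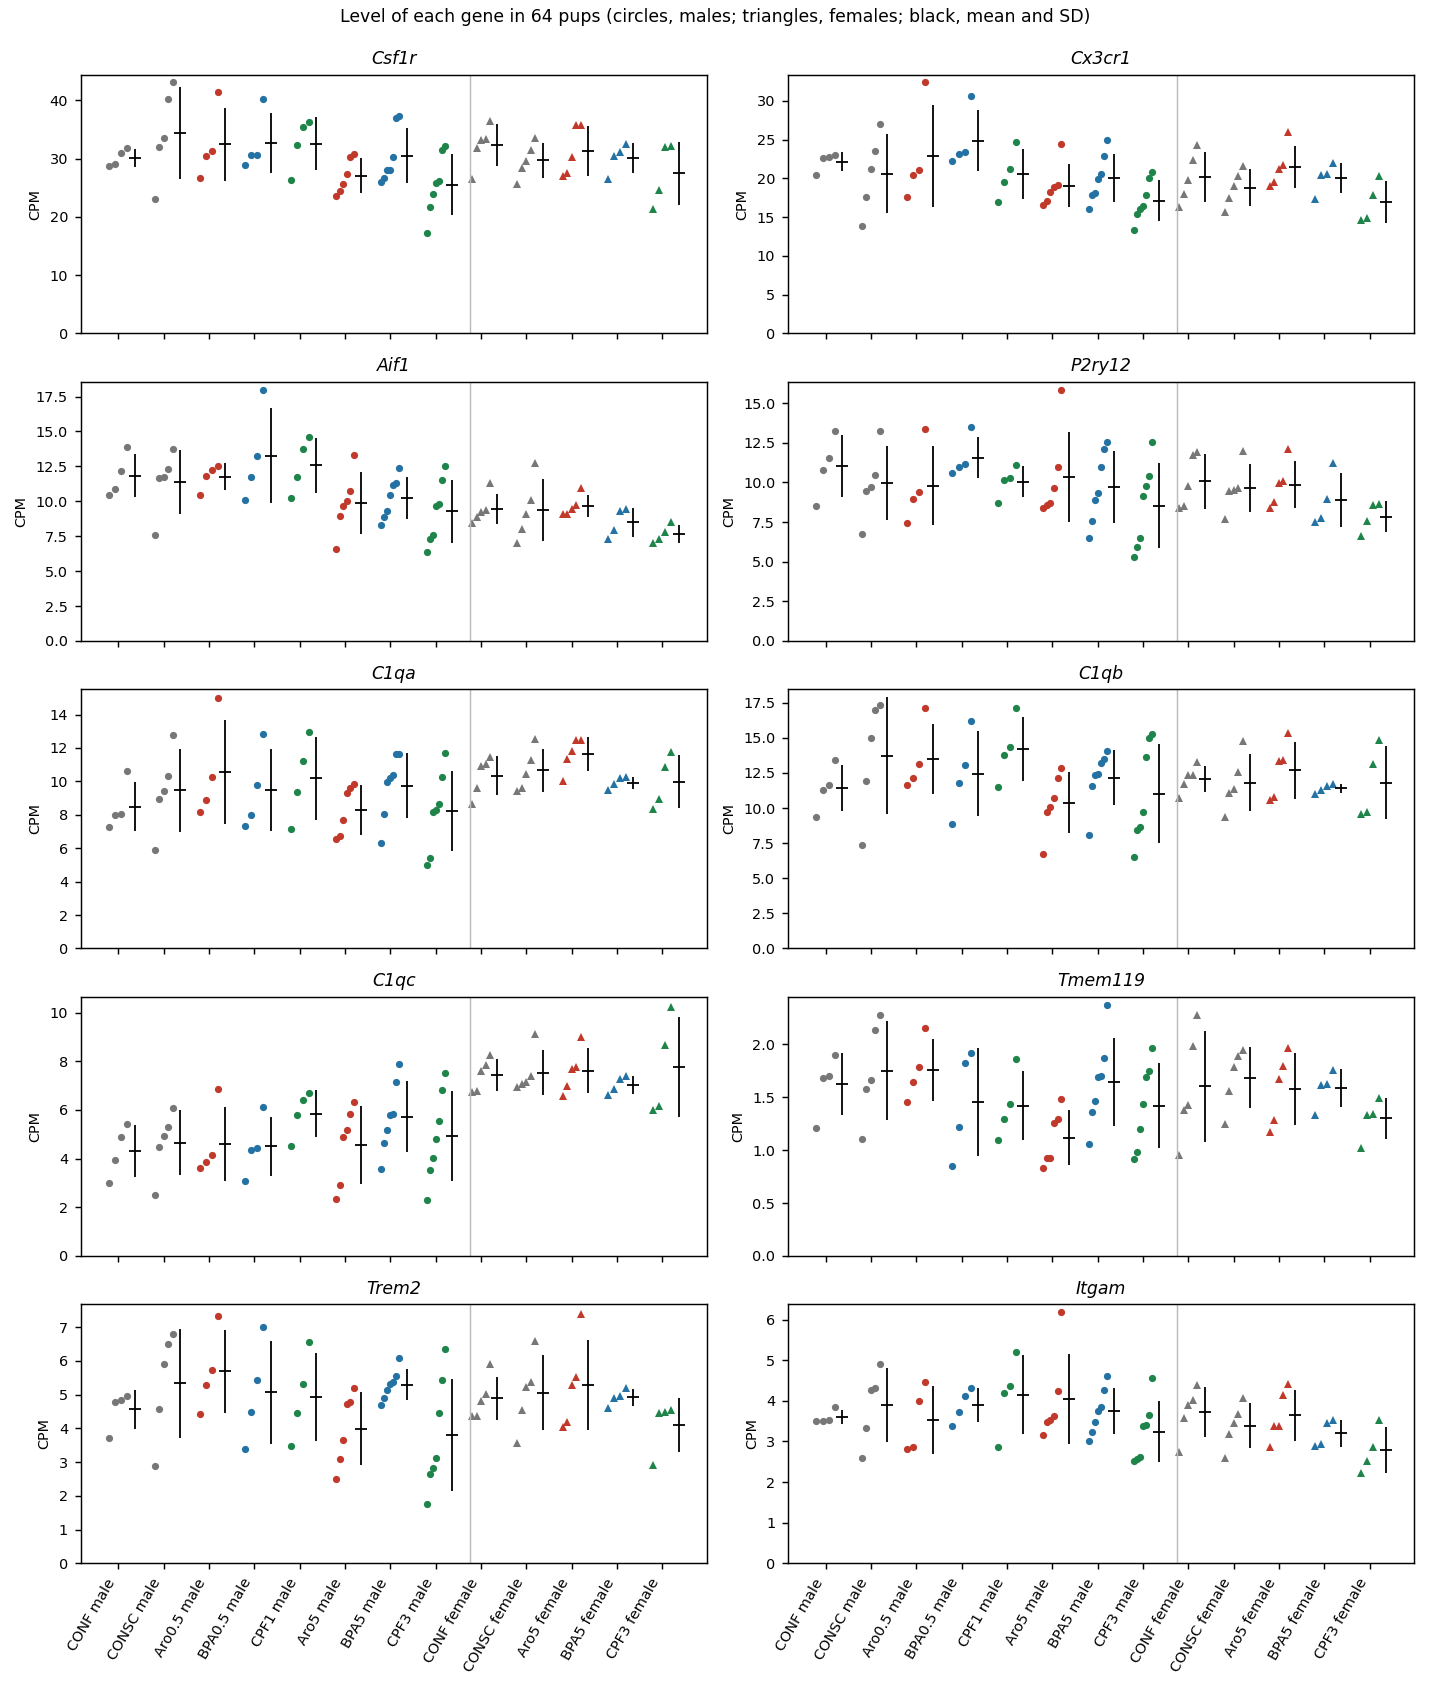
CPM per pup (y axis, linear) of the 10 genes in the 13 groups (x axis), with circles for males and triangles for females, 1 point per pup, black lines for mean and SD, and grey for controls, red for Aroclor 1254, blue for bisphenol A and green for chlorpyrifos. Neighbouring group means are close in every panel, and in C1qc the females, at 6.01 to 10.2 CPM, stand above most males, at 2.30 to 7.89 CPM.

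Whether exposure changed these genes was asked first in high-dose males, against the 9 male controls. Csf1r, Cx3cr1 and Aif1 were lower on average in CPF3 males, at unadjusted p values under 0.05, but no member reached an adjusted p under 0.05 in any treated group.

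The CPF3 males showed Csf1r at a lowest, median and highest value of 17.2, 25.8 and 32.1 CPM (25.5 ± 5.25, SD, n = 7), the controls at 23.0, 31.9 and 43.1 CPM (32.5 ± 6.06, SD, n = 9). The groups overlapped. The log2 fold change was −0.33 (SE 0.12; adjusted p = 0.305, edgeR quasi-likelihood test with Benjamini-Hochberg adjustment). Cx3cr1 was at 13.3, 16.4 and 20.8 CPM in CPF3 males (17.1 ± 2.64, SD, n = 7) and at 13.9, 22.6 and 27.0 CPM in controls (21.3 ± 3.76, SD, n = 9), again with overlap. Its log2 fold change was −0.30 (SE 0.12; adjusted p = 0.323, edgeR). Aif1 was at 6.39, 9.67 and 12.5 CPM against 7.59, 11.7 and 13.9 CPM, with overlap. Its log2 fold change was −0.31 (SE 0.14; adjusted p = 0.387, edgeR). With library name form as a covariate, a fit that rests on the 2 libraries of N2-2y, the log2 fold change of Aif1 was −0.04 (SE 0.30), that of Csf1r −0.27 and that of Cx3cr1 −0.25. None of the 3 was called in that fit. Over the alternatives other than leaving out a pup, adjusted p (edgeR or DESeq2) began at 0.334 for Aif1, 0.224 for Csf1r and 0.253 for Cx3cr1. It reached 0.9999 for each.

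Of the 10 members, 9 had a negative log2 fold change in CPF3 males, with a median of −0.27 against 0.00 over all genes tested. Of all genes tested, 50.8% had a positive value. The members varied together from pup to pup, as described below, so that their signs are not independent, here and in the other comparisons. C1qc was the member with a positive value, 0.16 (SE 0.23). The other chains were at −0.11 (C1qa, SE 0.17) and −0.18 (C1qb, SE 0.18), and Trem2 had the most negative value, −0.36 (SE 0.21; adjusted p = 0.463, edgeR). An adjusted p under 0.05 was reached by 0 of 10 members, 3 had an unadjusted p under 0.05, and the corresponding shares of all genes were 0.159% and 12.6%. Without CPF3 male 35-5y, which had the lowest value in 6 members, the median was −0.18, and without CONSC male 10-2y, which was lowest among its group in all 10, it was −0.33.

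In Aro5 males, Tmem119 was at 0.833, 1.09 and 1.48 CPM (lowest, median and highest; 1.12 ± 0.261, SD, n = 6), from 15 to 52 counts per pup. The controls were at 1.11, 1.68 and 2.27 CPM (1.70 ± 0.381, SD, n = 9), and the groups overlapped. The log2 fold change of −0.55 (SE 0.19) had an adjusted p of 0.257 (edgeR). Csf1r was at −0.25 (SE 0.13; adjusted p = 0.450, edgeR) and C1qb at −0.27 (SE 0.19; adjusted p = 0.612, edgeR), while P2ry12, C1qc and Itgam were at 0.01, 0.05 and 0.12. Of the 10 members 7 had negative values, the median was −0.18, 0 passed the adjusted threshold and 1 the unadjusted one, against 0.195% and 11.8% of all genes.

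BPA5 males gave 6 negative values of 10 and a median of −0.03, with 0 members at an adjusted or unadjusted p under 0.05 beside 0.189% and 9.1% of all genes. The sign of this median was not stable: it was 0.02 without BPA5 male 88-3y, 0.01 without CONSC male 6-5y, 0.0017 without CONSC male 11-4y, 0.05 with only controls of the same route and 0.04 with the name form as a covariate. C1qc had the largest value, 0.37 (SE 0.22; adjusted p = 0.608, edgeR). Csf1r was at 26.0, 28.1 and 37.4 CPM (lowest, median and highest) in BPA5 males, that is, a log2 change of −0.08 (SE 0.12; adjusted p = 0.845, edgeR).

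The high doses were also compared with each other, all in libraries of form B. No gene of the whole table passed the adjusted threshold in the 3 pairs (0% of 16393 genes in each), and an unadjusted p under 0.05 was reached by 4.4% of genes between Aro5 and BPA5, 4.17% between Aro5 and CPF3 and 2.7% between BPA5 and CPF3. Between BPA5 and CPF3 males, all 10 members were higher in BPA5 (median log2 difference 0.21), and Trem2 reached an unadjusted p under 0.05, with 0.47 (SE 0.22; adjusted p = 1.00, edgeR). Trem2 was at 4.70, 5.30 and 6.09 CPM in BPA5 males and at 1.75, 3.14 and 6.35 CPM in CPF3 males, so that the range of BPA5 lay inside that of CPF3. Aro5 was below BPA5 males in 8 members (median −0.20), with Tmem119 at −0.55 (SE 0.20; adjusted p = 0.818, edgeR) and at an unadjusted p under 0.05. Against CPF3 males, Aro5 was lower in 3 members (median 0.08) and none had an unadjusted p under 0.05; this median was −0.03 with only pups dissected from 10.30 to 13.20 h and −0.0019 without CPF3 male 38-1y. These contrasts, like those against controls, share groups, and their signs are not independent.

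In low-dose males, no member had an unadjusted p under 0.05, beside 18.5% of all genes in Aro0.5, 8.58% in BPA0.5 and 2% in CPF1 males. Lower on average were 2 of 10 members in Aro0.5 (median 0.13), 1 in BPA0.5 (median 0.09) and 3 in CPF1 males (median 0.07), with 0 members called beside 0.124%, 0.0434% and 0% of all genes. Each median turned sign when 1 pup was left out: it was −0.03 without Aro0.5 male 98-8y, −0.08 without BPA0.5 male 73-4y and −0.01 without CPF1 male 63-5y. Csf1r was at 32.5 ± 6.31 CPM in Aro0.5, 32.7 ± 5.17 in BPA0.5 and 32.6 ± 4.53 in CPF1 males (SD, n = 4 each), near the 32.5 ± 6.06 CPM of the controls. C1qc in CPF1 males had the largest log2 fold change, 0.39 (SE 0.21; adjusted p = 0.997, edgeR), at 4.51 to 6.70 CPM. The CPF1 group was not compared directly with CPF3, since its libraries have the other name form.

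In females, CPF3 pups were lower than the 10 controls in 8 of 10 members (median −0.20), with 0 members called and 0% of 16992 genes. Aif1 was read at 7.04 to 8.48 CPM in the 4 CPF3 females (7.67 ± 0.630, SD) and at 7.01, 9.17 and 12.8 CPM (lowest, median, highest) in controls (9.41 ± 1.64, SD, n = 10). P2ry12 was at 6.59 to 8.65 CPM (7.85 ± 0.978, SD, n = 4) against 7.69, 9.60 and 12.0 CPM (9.87 ± 1.54, SD, n = 10). Both ranges overlapped with those of the controls. The log2 fold changes were −0.27 for Aif1 (SE 0.12; adjusted p = 0.518, edgeR) and −0.30 for P2ry12 (SE 0.14; adjusted p = 0.537, edgeR), the 2 members with an unadjusted p under 0.05, against 8.79% of all genes. The C1q chains were at −0.03, 0.03 and 0.10. Without CPF3 female 35-3x the median of the members was −0.11. The CPF3 pups of both sexes shared 4 litters. Csf1r was at 17.2 CPM in the male and 21.3 CPM in the female of litter 35, at 21.8 and 24.7 CPM in litter 38, at 23.9 and 32.1 CPM in litter 43 and at 32.1 and 32.0 CPM in litter 45. Litter 35 gave the lowest Csf1r of its group in either sex.

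Aro5 females were lower in 1 member (median 0.05) and BPA5 females in 9 (median −0.06), with 0% of genes called in each and no member at an unadjusted p under 0.05, beside 3.23% and 4.08% of all genes.

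A sex by treatment interaction, fitted to 52 pups, asked whether males and females responded unlike each other. No member had an adjusted or unadjusted p under 0.05 for Aro5, BPA5 or CPF3, where 0.0984%, 0.0405% and 0.0463% of 17282 genes were called and 8.92%, 2.79% and 5.6% had an unadjusted p under 0.05. The largest interaction was that of Tmem119 in Aro5, with a log2 difference of 0.50 (SE 0.26; adjusted p = 0.575, edgeR). CONF and CONSC pups had 0 members at an adjusted or unadjusted p under 0.05 in either sex, beside 0.013% of genes called in males and 0% in females, and 0.988% and 4.29% at an unadjusted p under 0.05.

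Over the comparisons of treated pups with controls, 6 of 90 tests of members, or 6.67%, had an unadjusted p under 0.05, below the 8.69% of all tests of genes in these 9 comparisons. An adjusted p under 0.05 was reached by 0, and DESeq2 also called 0. The plot of fold changes shows these 6 values among the others.

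**Figure D2:**
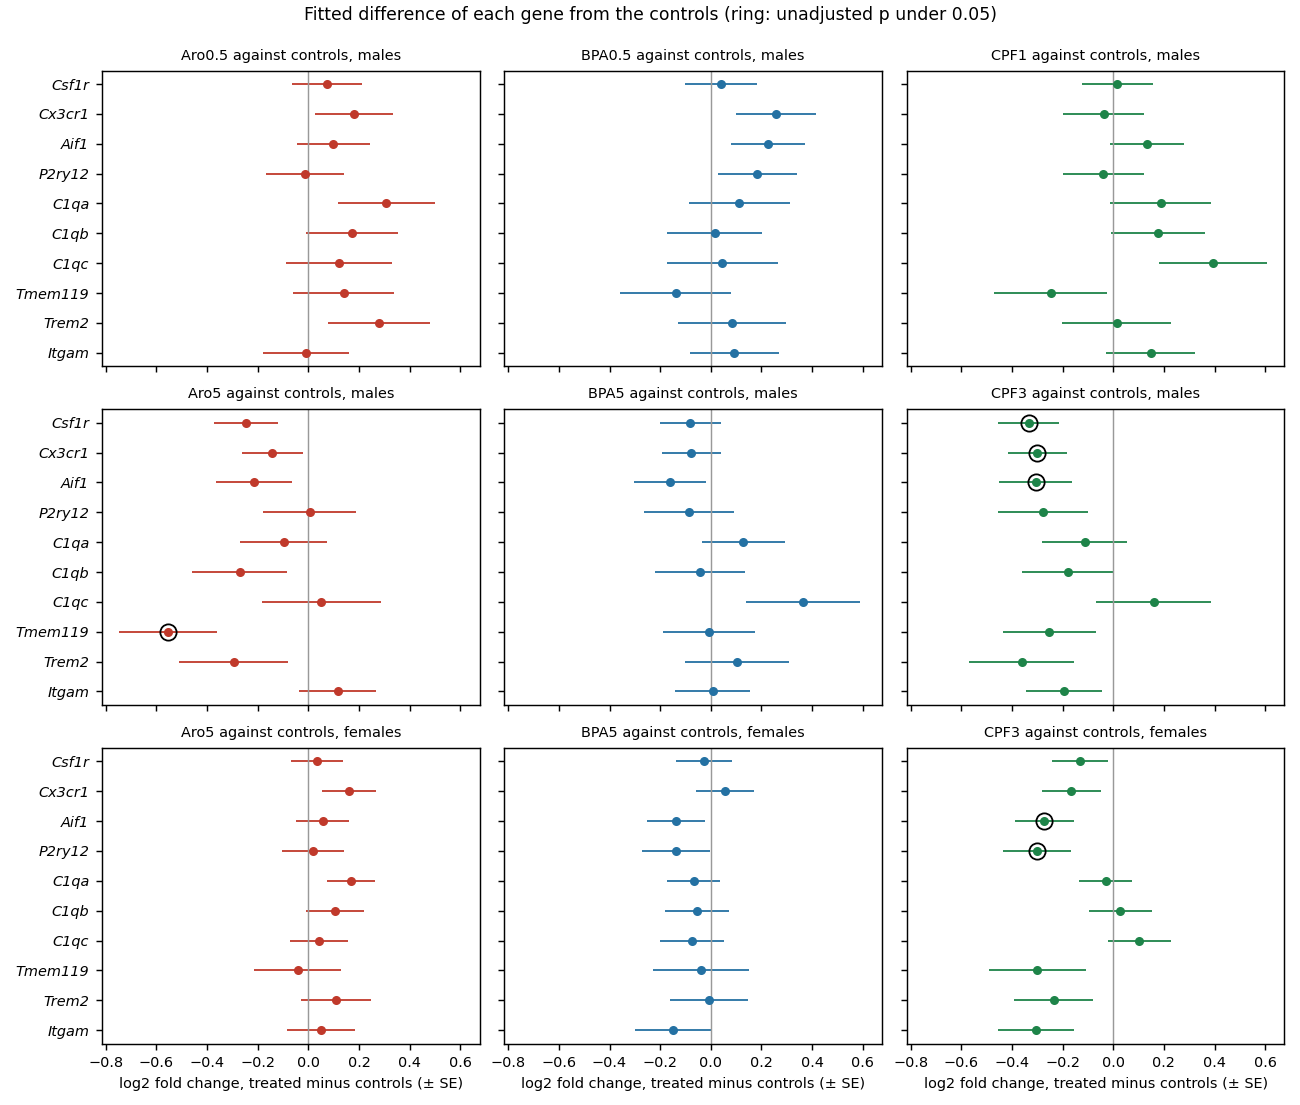
Log2 fold changes, treated minus controls (x axis, points with lines of 1 SE on either side), of the 10 genes (y axis) in the 9 treated groups, with rings around values at an unadjusted p under 0.05. Rings stand at Tmem119 in Aro5 males, at Csf1r, Cx3cr1 and Aif1 in CPF3 males and at Aif1 and P2ry12 in CPF3 females, all on the negative side.

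C1qc was the member that differed between the sexes. The 5 CONF and 5 CONSC females lay between 6.74 and 9.13 CPM (median 7.28; 7.49 ± 0.748, SD, n = 10). The CONF males were at 3.95, 3.01, 4.87 and 5.42 CPM and the CONSC males at 2.49, 6.08, 4.95, 5.29 and 4.46 CPM (4.50 ± 1.17, SD, n = 9). All control females stood above all control males. The log2 fold change was 0.78 (SE 0.13; adjusted p = 8.62e-05, edgeR, with the route of the controls as a covariate), and 30.2% of the genes tested were called in this comparison. C1qa, whose ranges overlapped (5.87 to 12.8 CPM in males, 8.67 to 12.5 CPM in females), differed by 0.27 on the log2 scale (SE 0.11; adjusted p = 0.0810, edgeR), and C1qb, at 12.7 ± 3.33 and 11.9 ± 1.50 CPM, by −0.03 (SE 0.13; adjusted p = 0.886, edgeR). Aif1 differed by −0.25 (SE 0.11; adjusted p = 0.0855, edgeR). The other members lay between −0.09 and 0.06. With the litter as a replicate block, 2 members were called beside 28.1% of genes, C1qc and C1qa, the latter at 0.33 (SE 0.12; adjusted p = 0.0394, limma).

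The same pup gave different values of C1qc in its 2 libraries. Male N2-2y had 40 counts, 2.43 CPM, in library A and 95 counts, 5.35 CPM, in library B, a log2 difference of 1.14, larger than the difference between the sexes. Trem2 differed by 0.86 between these libraries, C1qa by 0.42, C1qb by 0.18, and 8 of 10 members were higher in B. Female N4-3x had C1qc at 6.95 CPM in A and 6.51 CPM in B, and 3 of 10 members were higher in B. Over all genes, a fit of the controls without both of these pups called 26.2% of 15635 genes. Of the 2489 genes called higher in females, 95.9% were also higher in library B than in library A of male N2-2y, against 49.8% of all genes, and of the 1615 called lower 91.1% were lower in B. For the libraries of N4-3x the shares were 58% and 74.5%. When only libraries of form A were compared, 5 of females and 9 of males, C1qc was higher in females by 0.80 (adjusted p = 0.0121, edgeR), and with form as a covariate by 0.74 (adjusted p = 0.00141, edgeR). In control females C1qc was at 7.48 ± 0.956 CPM in form A (SD, n = 5) and 7.37 ± 0.640 CPM in form B (SD, n = 6). The study speaks of the female samples as an assay of their own that was run again. Which libraries belong to which run is not given in the sources used here, and the part of library preparation in the difference was not tested.

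The chains were also set against each other within a pup, as the ratio of C1qc to C1qb counts. The ratio contains the unequal gene lengths and is therefore compared between pups alone. It was 0.359 ± 0.0642 (SD, n = 9) in control males and 0.632 ± 0.0675 (SD, n = 10) in control females. Control and low-dose males lay between 0.258 and 0.481 (median 0.364, 21 pups), high-dose males between 0.270 and 0.600 (median 0.444, 20 pups) and all females between 0.519 and 0.767 (median 0.617, 23 pups). With the 2 libraries of N2-2y summed (0.422), control and low-dose males thus did not overlap with females. High-dose males, all of name form B, overlapped with both. Library A of male N2-2y had a ratio of 0.278. Its library B, the only library of form B among control and low-dose males, was at 0.540, inside the range of the females. The part of the name form in these ratios was not tested. The ratio of C1qa to C1qb overlapped more, with 0.763 ± 0.102 in the 41 males and 0.886 ± 0.0756 in the 23 females (SD).

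**Figure D3:**
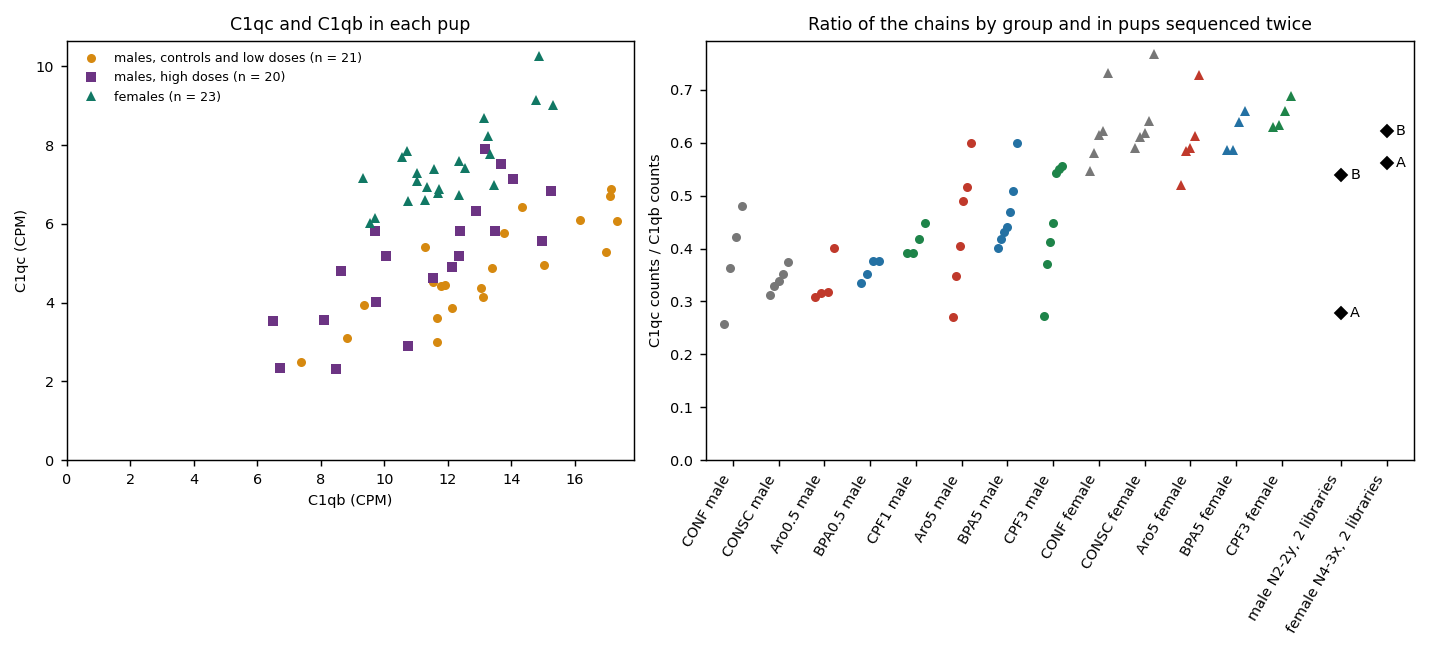
Left, C1qc against C1qb in each pup (both axes in CPM), with circles for control and low-dose males, squares for high-dose males and triangles for females; right, the ratio of C1qc to C1qb counts (y axis) in each pup of the 13 groups and, as diamonds, in the libraries A and B of the pups sequenced 2 times. Females lie above the control and low-dose males at a like level of C1qb. Library B of male N2-2y, at 0.540, lies above all control and low-dose males and inside the range of the females.

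Within groups, the members rose and fell together from pup to pup. Correlations of log2 CPM were computed over 64 pups after the mean of each group had been removed, for 45 pairs, with 100000 permutations within groups and Benjamini-Hochberg adjustment over the pairs. All 45 values of Pearson's r were positive, from 0.00 (P2ry12 and C1qc, Spearman's rho = −0.01) to 0.85 (C1qa and C1qc). Their median was 0.55, and 37 had an adjusted p under 0.05. Pairs of other genes were not computed, so that no share over all genes stands beside this count. The C1q chains formed the closest set. C1qa and C1qc had r = 0.85 (Spearman's rho = 0.84; r = 0.82 without the 2 farthest pups), C1qa and C1qb r = 0.84 (rho = 0.83; 0.83 without the 2 pups) and C1qb and C1qc r = 0.80 (rho = 0.79; 0.78 without the 2 pups). Each had p = 1e-05 in the permutation test, the smallest these permutations can give, and an adjusted p of 3.46e-05. By sex, C1qa and C1qc had 0.86 in males and 0.75 in females, C1qa and C1qb 0.85 and 0.83, and C1qb and C1qc 0.81 and 0.80. Not all pairs were so alike in the sexes. C1qc and Tmem119, chosen after the values were seen, had 0.51 in males and −0.21 in females, and C1qa and Tmem119 0.58 and 0.02.

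**Figure D4:**
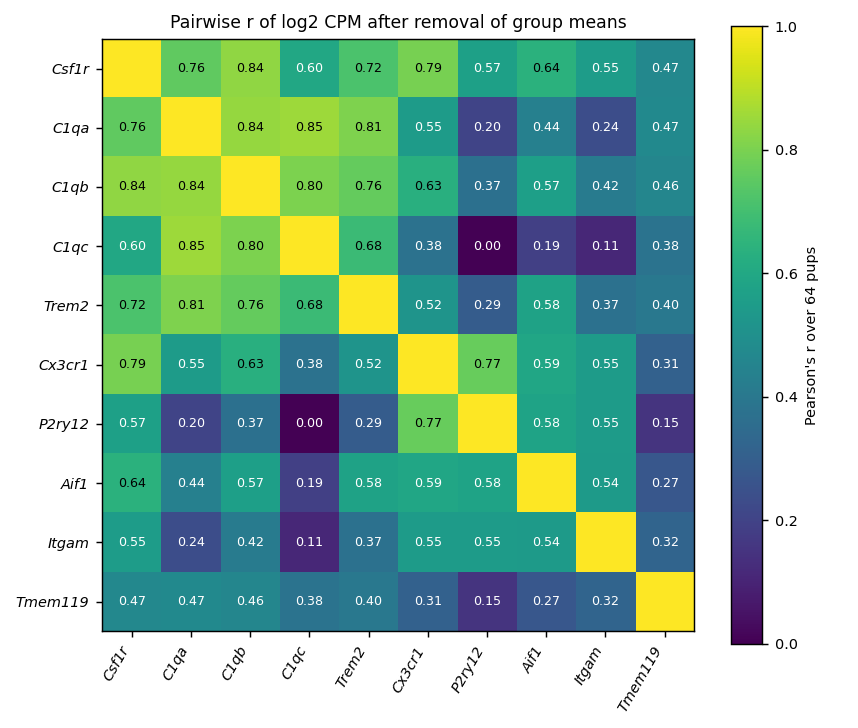
Pearson's r of log2 CPM (colour scale, 0 to 1) for each of the 45 pairs of genes (both axes) over 64 pups, after removal of group means. The block of C1qa, C1qb and C1qc holds values of 0.80 to 0.85, and the weakest cell, P2ry12 and C1qc, is near 0.

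Outside the C1q chains, Csf1r and C1qb had r = 0.84, C1qa and Trem2 0.81, Csf1r and Cx3cr1 0.79, and Cx3cr1 and P2ry12 0.77. Itgam and C1qc had 0.11. Csf1r followed the mean of the other 9 members most closely (r = 0.91; rho = 0.89; 0.88 without the 2 farthest pups), and Tmem119 least by r (0.47; 0.42; 0.37), though P2ry12 had the lowest rho (0.41). Pups share depth and dissection across genes, and these values are descriptions of the libraries. Single pups held the same end of their group's order in all 10 members, which is a rank among 4 or 5 pups. CONSC male 10-2y was lowest of its group in all 10 members, CONSC female 9-1x highest in all 10 and CPF1 male 63-5y highest in all 10. By Dixon's criterion, described below, 9-1x was flagged in C1qc alone, and 10-2y and 63-5y in no member. Such ranks were not counted over all genes.

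Other genes were correlated in log2 CPM with the mean of the standardised members over 64 pups, after the mean of each group had been removed. The genes most like the members were Tmem176a (0.87), Pld4 (0.85), Gpr37l1 (0.82), Laptm5 (0.82), Glul (0.82), Slc2a5 (0.82), Ctss (0.81), Slco2b1 (0.81), MGC112715 (0.80) and Rasd2 (0.79), out of 17357 genes with a median r of 0.01. Without removal of the group means, 7 of these 10 genes remained among the first 10. Laptm5, a lysosomal membrane protein of immune cells, Ctss, the protease cathepsin S, and the fructose carrier Slc2a5 also belong to the list of other microglial markers. Glul, glutamine synthetase, is known from astrocytes. Glul, Tmem176a, Pld4, Gpr37l1, Slco2b1, MGC112715 and Rasd2 are in none of the marker lists. The cells from which these genes come were not tested.

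Ligands and partners of the members were read from a list of 13 genes, of which 10 could be tested, and none was called in a treated group. Csf1 and Il34, the ligands of CSF1R, lay between 6.61 and 11.9 and between 6.36 and 28.7 CPM. In CPF3 males their log2 fold changes were −0.12 (SE 0.10) and −0.05 (SE 0.25), that of Cx3cl1, the ligand of CX3CR1, was −0.14 (SE 0.13), and that of Tyrobp, the adaptor of TREM2, was −0.18 (SE 0.18). Itgb2, the partner of ITGAM, was at −0.12 (SE 0.14). C1r and C1s encode the proteases that join C1q in the C1 complex, and C1s was at −0.27 (SE 0.11; adjusted p = 0.345, edgeR), with 4.60 to 11.4 CPM over all pups. C3, the central complement protein, lay between 0.359 and 26.2 CPM (median 1.38), the highest value being that of CONF female N4-3x, with the next at 5.02. C4b lay at or under 0.628 CPM. The row read for C4a, a symbol with 2 rows, held 0 counts in all pups, and whether its reads were assigned elsewhere was not tested.

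Other microglial markers, 28 tested of 31, moved with the members in part. In CPF3 males 8 were higher, the median was −0.13, 0 were called and 7 had an unadjusted p under 0.05, against 12.6% of all genes. Of these 7, some were picked after their values were seen, all of them negative: Gpr34 at −0.39, P2ry13 at −0.45, Laptm5 at −0.36 and Ctss at −0.29. The others of the 7 and the 8 markers that were higher are not named here. In CPF3 females 8 were higher (median −0.10) and 5 had an unadjusted p under 0.05. Markers of other cells were read in the same fit. In CPF3 males 0 of 9 oligodendrocyte lineage markers were higher (median −0.16), 1 of 8 astrocyte markers (median −0.19), 3 of 9 neuronal markers (median −0.02) and 4 of 8 tested markers of border macrophages (median 0.01). Those at an unadjusted p under 0.05, named after their values were seen, included S100b (−0.39), Gja1 (−0.29) and Aldh1l1 (−0.26) of astrocytes. Gad1 (−0.56) and Gad2 (−0.50) of neurons and Pdgfra (−0.20) of the oligodendrocyte lineage were also among them. None of these named genes reached an adjusted p under 0.05. In CPF3 females, 3 of 9 oligodendrocyte lineage markers were higher (median −0.21), 2 of 8 astrocyte markers (median −0.10) and 3 of 9 neuronal markers (median −0.07). Summed levels of the 9 oligodendrocyte lineage markers ran from 466.2 to 718.7 CPM in CPF3 males, from 595 to 736 CPM in CONF males and from 544 to 746 CPM in CONSC males, and those of the 8 astrocyte markers from 1279 to 1850, 1591 to 1900 and 1569 to 1971 CPM. The part of these cells in the values of the members was not tested.

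Lists of further cells and states were read in CPF3 males, and no gene of them was called. Higher were 3 of 15 tested genes of the activated microglia of early postnatal white matter (median −0.13, 7 at an unadjusted p under 0.05), 13 of 31 complement genes (median −0.01) and 8 of 12 genes of inflammation (median 0.01). Of markers of blood cells, 0 of 2 tested genes of monocytes and neutrophils, 0 of 1 of lymphocytes and 0 of 5 of red blood cells were higher. Among the rest, 2 of 8 markers of endothelium and mural cells (median −0.05), 0 of 5 of choroid plexus (median −0.31) and 5 of 7 of meninges and fibroblasts (median 0.14) were higher. The rows read for Cd79a of lymphocytes, Col1a2 of fibroblasts, Tnf and Adora3 held 0 counts in all 64 pups. The symbol Col1a2 has 2 rows, and Col1a1 and Col3a1 of the same list were tested. Whether these zeros come from the assignment of reads was not tested. The summed level of the markers of monocytes and neutrophils was 5.16 to 6.19 CPM in CPF3 males and 5.12 to 8.20 CPM in control males.

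Female and male controls differed in further genes of these lists, with 30.2% of all genes called. Of the other microglial markers, those called higher in females included Spi1 (0.96, SE 0.14), Cyba (0.94, SE 0.12) and Fermt3 (0.49, SE 0.14), and those called lower included Tgfbr1 (−0.31, SE 0.09) and Cd53 (−0.28, SE 0.11). Of the partners, Apoe (0.97, SE 0.10), a ligand of TREM2, Gas6 (0.36, SE 0.07) and Cx3cl1 (0.28, SE 0.08) were higher. Each of the higher genes named here was also higher, and each of the lower ones lower, in library B than in library A of male N2-2y. For the libraries of N4-3x this held in part: Spi1 differed by −0.51, Fermt3 by −0.08 and Cyba by −0.02 (log2, B minus A), Apoe by 0.05, Gas6 by 0.08 and Cx3cl1 by 0.01, while Tgfbr1 (−0.14) and Cd53 (−0.36) were lower in B. In N2-2y, Spi1 was at 0.728 CPM in A and 1.63 CPM in B, and Apoe at 197 and 464 CPM. Control males had 401 and control females 763 CPM of Apoe on average. Of 30 complement genes tested, Cfd (0.85, SE 0.19), Csmd2 (0.41, SE 0.10), Sez6l2 (0.26, SE 0.05), Cfp (0.22, SE 0.07) and Sez6 (0.21, SE 0.06) were higher and C1qbp (−0.14, SE 0.05) was lower. Genes of the other lists called higher in females included Apoe and Axl of activated microglia, Stab1 of border macrophages, Cldn5 of endothelium, Tgfb1 of inflammation, Col1a1 of fibroblasts, Tubb3 and Rbfox3 of neurons, Mbp, Mag, Olig1 and Sox10 of the oligodendrocyte lineage and Hba1 of red blood cells. Those called lower included Cd63, Cd9 and Ctsl of activated microglia, Gja1 and Slc1a3 of astrocytes, and Mog and Pdgfra of the oligodendrocyte lineage.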

How the data were processed

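RNA of the dorsal hippocampus was measured in 66 libraries of 64 pups. The authors deposited raw counts per gene, made with STAR and featureCounts on build Rnor_6.0 per the labels. The sequencer is a NovaSeq per the labels and a HiSeq per the methods of the study. Versions and the strand setting are not given in the sources used here, so that reads of overlapping or near-identical genes could not be separated. Groups and pups were taken from the labels, counts of 2 libraries of 1 pup were summed, and both kinds of controls were pooled per sex. Comparisons were fitted over all genes with edgeR 4.0.16 (TMM, filterByExpr by group, quasi-likelihood test, Benjamini-Hochberg adjustment over all genes tested, threshold 0.05), with separate fits for males of high doses, males of low doses, females, controls of either sex, all controls, and controls with high doses of both sexes. The SE is the size of the log2 fold change divided by the square root of F. The script was tested on simulated data. R was version 4.3.3, and alternatives used limma 3.58.1 and DESeq2 1.42.0. Python 3.11.15 (pandas 2.3.3, numpy 2.4.6, scipy 1.17.1, matplotlib 3.10.9) gave CPM, correlations and figures. Correlations used log2 CPM with 2 counts added.

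Depth was 10644138 to 86206550 counts per library, and Tmem119 had the fewest counts of the members, 9 to 129 per pup. Members and gene lists were chosen with earlier results of these data known. The genes named were all members, their direct ligands, partners and proteases, list genes with an adjusted p under 0.05, the 10 genes most like the members, and members with an unadjusted p under 0.05; some list genes are not reported here. The comparison of controls in libraries of form A alone was chosen after the data had been seen. Alternatives were other normalizations, filters and tools, libraries kept separate, the name form as a covariate, only pups dissected from 10.30 to 13.20 h, only controls of the same route, and each pup left out. Pups of 1 litter share a dam per the labels, and the litter was therefore tried as a replicate block. In 20 pairs of littermates of different sex, the correlation of their deviations from the group means over genes was −0.38 to 0.37 (median −0.08), above 0.1 in 5 pairs. Within a group of 1 sex, pups came from separate litters, except that 1 litter gave 2 Aro5 males and 1 gave 2 Aro5 females.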

Additional observations from a re-analysis of the deposited data

Results flagged for a closer look

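Single pups that stood apart from the rest of their group, by Dixon's criterion in groups of 4 to 10 pups, were found in 12 of 130 groups of values tested. The criterion flags about 1 in 20 independent groups of normally distributed values. These 130 groups are not independent, since the same pups were read in genes that rose and fell together. The share of flags over all genes is not given here. CONF male N2-2y, the pup with 2 libraries, was lowest of its 4 in Cx3cr1 at 20.4 CPM (next 22.6) and in Trem2 at 3.71 CPM (next 4.78), and highest in Itgam at 3.86 CPM (next 3.54). Aro5 male 120-2y was highest in Cx3cr1 at 24.4 CPM (next 19.1), P2ry12 at 15.8 CPM (next 11.0) and Itgam at 6.18 CPM (next 4.25). BPA0.5 male 73-4y was highest in Csf1r at 40.3 CPM (next 30.7) and Cx3cr1 at 30.6 CPM (next 23.4). BPA5 male 88-3y was lowest in C1qb at 8.11 CPM (next 11.5). C1qc was highest in Aro0.5 male 98-8y at 6.87 CPM (next 4.13) and in CONSC female 9-1x at 9.13 CPM (next 7.41). CPF3 female 35-3x was lowest in Trem2 at 2.92 CPM (next 4.46).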

How the results depend on the processing

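The number of members called kept within 1.5 times its main value in 166 alternatives and in 379 fits that left out 1 pup, over all comparisons. It differed for female against male controls alone. With the litter as a replicate block 2 members were called in place of 1, since C1qa passed (0.33, SE 0.12, adjusted p = 0.0394, limma). When 1 pup was left out, 1 to 2 were called: C1qa passed without CONF male N4-7y (adjusted p = 0.0419) or CONSC male 11-4y (adjusted p = 0.0191), and Aif1 passed without CONSC female 9-1x (adjusted p = 0.0186) or CONSC male 10-2y (adjusted p = 0.0200), all by edgeR. The block changed no other call. C1qc ranged from 0.71 to 0.85 on the log2 scale (adjusted p 1.95e-08 to 0.0121) over the other alternatives and from 0.70 to 0.85 with 1 pup left out. No direction of a called value was reversed. Calls over all genes moved more. Over the alternatives other than leaving out a pup, they ran from 0 to 818 in Aro5 males (main 32), 0 to 63 in BPA5 males (main 31), 0 to 82 in CPF3 males (main 26), 0 to 269 in Aro0.5 (main 20), 0 to 39 in BPA0.5 (main 7), 0 to 3 in females (main 0), 4 to 609, 0 to 15 and 1 to 16 in the interactions with Aro5, BPA5 and CPF3 (main 17, 7 and 8), and 1721 to 5103 between the sexes (main 4760). The cause was not tested. With 1 pup left out they were 25 to 176 (176 without Aro5 male 108-1y), 25 to 39 and 17 to 41 in males of these high doses, 0 to 322 in Aro0.5 (0 without Aro0.5 male 94-3y, 322 without CONSC male 8-4y), 0 to 31 in BPA0.5, 0 to 1 in females, 8 to 17, 0 to 11 and 3 to 9 in the interactions and 4061 to 5586 between the sexes.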

Other observations

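BPA5 male 79-2y differed from the other pups in genes of the interferon response, chosen after their values were seen. Irf7, a transcription factor of that response, was at 23.4 CPM, with the next pup at 2.32 and a median of 0.978 over 64 pups. Isg15 was at 7.45 CPM (next 1.18), Cxcl10 at 1.35 CPM (next 0.637) and the complement factor Cfb at 13.6 CPM (next 4.80). The same pup had the highest C1qa (11.66 CPM, with 11.62 CPM in 81-1y) and C1qc (7.89 CPM) and the lowest Cx3cr1 (16.0 CPM) and P2ry12 (6.50 CPM) of the 7 BPA5 males. Counted from the highest, it had rank 3 in C1qb, Trem2, Aif1 and Tmem119, rank 2 in Itgam and rank 5 in Csf1r.

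CONSC female 9-1x, highest of its group in all 10 members, had the lowest Slc17a7, the vesicular glutamate transporter, of all 64 pups (26.7 CPM, next 92.3, median 200), and the lowest Masp1 (64.5 CPM, next 92.1).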
